A study of Mus musculus with 4 samples.

Results

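The replication timing (RT) of 9 genes of the neural lineage was read from the Repli-seq profile of mouse embryonic stem cells (mESCs): *Neurog1*, *Neurog2*, *Neurod1*, *Olig2*, *Pax6*, *Sox1*, *Pou3f2*, *Ptn* and *Nes*, which encodes Nestin. They were chosen as lineage genes that are silent or poised in mESCs, and no RNA was measured here, so their expression state was not checked. Each gene was represented by the 50 kb bins that overlap its body in the GENCODE vM21 annotation of mm10, 12 bins in all out of 51153 on the 19 autosomes and X. The surroundings were the bins within 1 Mb on each side, which brings the number of bins to 372. All 9 genes had a value in every one of these bins, and they are 9 of the 21652 protein-coding genes with a value.

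RT came from Repli-seq of diploid F121-9 cells, a hybrid cas/129 mESC line grown in N2B27 medium with 2i and LIF. Repli-seq counts BrdU-labeled DNA from cells collected early and late in S-phase, and there were 2 libraries of each kind. The deposited profile holds 1 RT value per bin, log2 of the ratio between early and late reads after scaling to RPM, so a positive RT means more early than late reads. It is 1 profile of 1 cell line with no separate values for replicates or homologs, so no error between replicates, no difference between homologs and no test can be given, and the read number behind each bin is unknown.

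In place of a replicate error, the scatter of single bins around their neighbors in flat stretches of the profile was used, and it had an SD of 0.16 log2 per bin. Genes were called not told apart when their gap was at or under 2 such SDs of the difference, which is 0.45 log2 for genes of 1 bin each. Differences between cultures are not part of this noise. The flat stretches were chosen for a low slope, and whether the profile was smoothed is unknown. The SD may therefore be too low, and with it the limit for telling genes apart.

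Mammalian chromosomes replicate in large domains in a fixed order, and early domains are mostly gene rich and active while late domains are mostly gene poor and inactive. Stretches of nearly constant RT are called constant timing regions (CTRs), and the slopes that join early and late domains are timing transition regions (TTRs). Genes that drive neural fate are kept off in mESCs, many of them under Polycomb-marked CpG islands, and some lineage genes are known to change their RT when mESCs become neural precursors. Within the set, *Neurog1*, *Neurog2*, *Neurod1* and *Olig2* encode basic helix-loop-helix (bHLH) transcription factors, *Pax6*, *Sox1* and *Pou3f2* encode factors of the PAX, SOX and POU families, *Ptn* encodes the secreted growth factor pleiotrophin, and *Nes* encodes an intermediate filament protein of neural progenitors.

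By the sign of RT, 6 of the 9 genes replicated early and 3 late. *Nes* was the earliest, at RT 3.85, and *Ptn* the latest, at RT -3.15. Between them lay *Neurog2* at 1.61, *Pax6* at 1.56, *Sox1* at 1.53, *Neurog1* at 1.42, *Olig2* at 0.56, *Neurod1* at -0.90 and *Pou3f2* at -1.06. The share of early genes, 6 of 9, stood beside 72.5% of all protein-coding genes and 40.9% of all bins with RT above 0, so this count was close to that of genes in general.

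Apart from *Nes*, the genes ranked below the middle of all protein-coding genes by RT. The median RT of all 9 was 1.42, and the median of all protein-coding genes was 2.23. The median of the 9 was lower still when bins were displaced by 50 kb to the left, at 0.78. Only *Nes* was above the median of all protein-coding genes. It was in the top of the scale, with 98.9% of genes and 99.8% of bins below it. *Neurog2*, *Pax6*, *Sox1* and *Neurog1* had 40.1% to 42.3% of genes below them, *Olig2* had 32.2%, *Neurod1* 20.8%, *Pou3f2* 19.8% and *Ptn* 6.39%. Among bins, which are mostly late, the same genes sat nearer the middle, with 71.7% to 73.5% of bins below the group of 4, 64.3% below *Olig2*, 50.8% below *Neurod1*, 49.3% below *Pou3f2* and 25.1% below *Ptn*.

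In this order, several neighbors could not be told apart. *Neurog2*, *Pax6*, *Sox1* and *Neurog1* spanned 0.19 log2 from the highest to the lowest, less than 2 noise SDs. *Neurod1* and *Pou3f2* differed by 0.16 log2, also within noise. The other steps were larger than the noise limit, with 2.24 log2 from *Nes* to *Neurog2*, 0.86 from *Neurog1* to *Olig2*, 1.47 from *Olig2* to *Neurod1* and 2.09 from *Pou3f2* to *Ptn*. With these bins the set thus fell into an early gene, a group of 4 at moderately early RT, *Olig2* just above 0, a pair near -1 and a late gene. The group of 4 and the pair depended on bin placement and smoothing. With bins placed 50 kb to the left, *Sox1* was at 1.96 and *Neurog1* at 0.78, and *Neurod1* was at -0.79 and *Pou3f2* at -1.69. After a running median over 5 bins, *Neurog2* was at 1.61 and *Pax6* at 1.02.

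**Figure D1:**
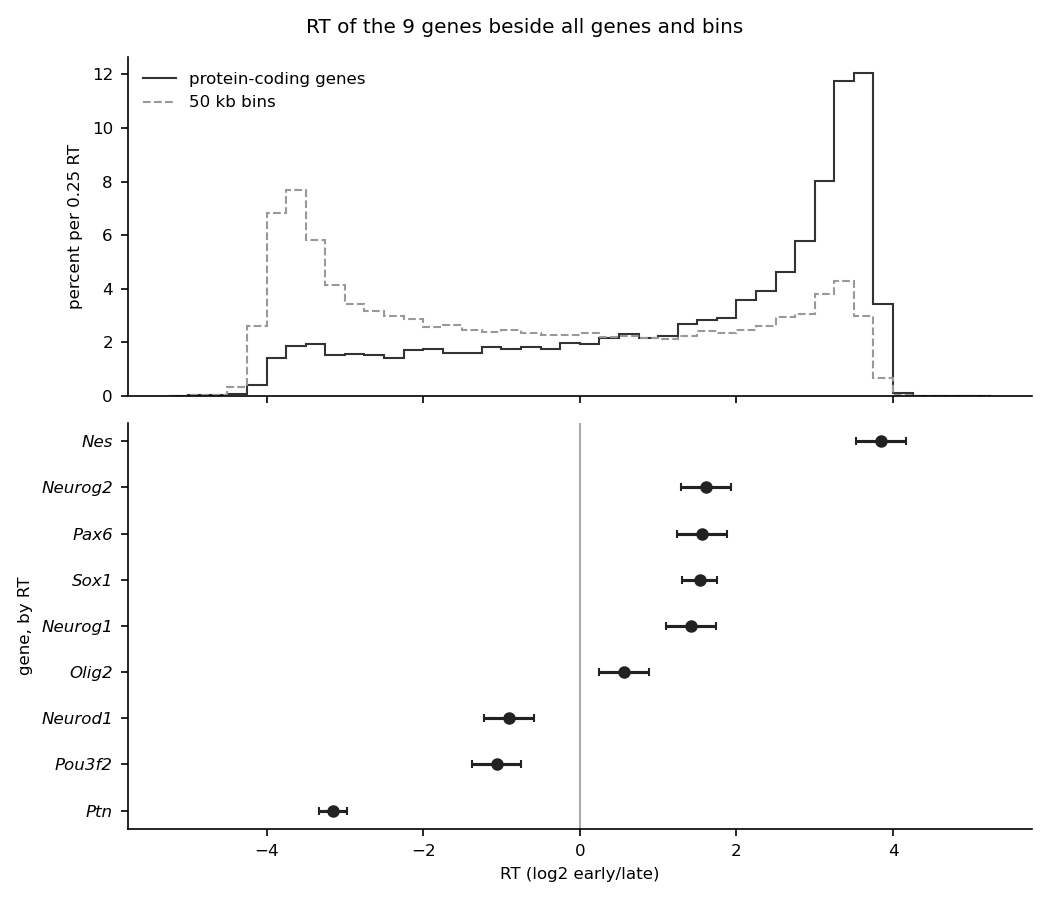
Upper panel, the percent of protein-coding genes (solid line) and of 50 kb bins (dashed line) in steps of 0.25 RT, in log2 of early over late reads. Lower panel, RT of each gene (point) with 2 noise SDs of the mean of its bins on either side (bar). *Nes* at 3.85 lies just above the early mode of genes, in their upper tail, 7 genes lie between -1.06 and 1.61 where genes are fewer, and *Ptn* lies at -3.15.

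RT between -2 and 2 held 7 of the 9 genes, all but *Nes* and *Ptn*. This range, chosen after the values were seen, held 33.3% of all protein-coding genes and 37.4% of all bins. All 7 transcription factors of the set were in it and both genes of other kinds were outside. Among other neural genes, read below, it held 5 of 8 bHLH, 7 of 13 PAX and homeobox, and 3 of 6 SOX genes. It held 1 of 3 POU class 3, 2 of 5 pleiotrophin family and receptor, and 3 of 8 intermediate filament genes. In the Notch pathway it held 1 of 4 ligand, 1 of 3 receptor and 1 of 4 target genes. Of the mesoderm and endoderm regulators, also read below, it held 3 of 9, and of the pluripotency factors 0 of 9. Of the 9 genes, 4 lay between the narrower limits of RT -1.5 and 1.5, as *Neurog2*, *Pax6* and *Sox1* are just above 1.5. The share of all protein-coding genes between these narrower limits is not given.

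*Neurog1* and *Neurog2*, which encode neurogenins that start neuronal differentiation, had the same RT within noise, with a difference of 0.19 log2. Their surroundings were not alike. *Neurog2* (chromosome 3, 127633135 to 127635631) lay in an early domain of only 800 kb, from 127200001 to 128000000, with late DNA on both sides. The profile climbed from -2.86 at 900 kb to the left of the gene to 2.42 at 150 kb to the left, was 1.61 at the gene, and fell to -4.43 at 950 kb to the right. Of the 41 bins within 1 Mb, 16 had RT above 0. The bin of *Neurog2* also holds the end of *Zgrf1*, whose mean RT was 1.75.

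*Neurog1* (chromosome 13, 56250478 to 56252163, minus strand) lay near the right end of an early domain of 2450 kb. RT reached 3.96 at 750 kb to the left of the gene, dipped to 0.99 at 250 kb to the left, rose again to 1.92 at 100 kb to the left and was 1.42 at the gene. To the right it stayed close to 0 and did not reach RT -1 within 1 Mb, with values between -0.24 and 0.27 from 200 to 850 kb. The TTR that begins in the bin of *Neurog1*, in which RT crosses 0 more than once, was long, 1300 kb between its end bins against 200 to 400 kb for the TTRs closest to the other 8 genes. *Cxcl14*, a chemokine gene, shares the bin of *Neurog1*.

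*Neurod1* (chromosome 2, 79452521 to 79456751, minus strand), a later-acting gene of neuronal differentiation, was the only bHLH gene of the set with RT below 0, at -0.90. It was higher than most of the bins around it. The mean over the bins within 1 Mb was -2.64, and only 2 of 41 bins were above 0. RT was -3.95 at 500 kb to the left and -3.72 at 500 kb to the right, and the top of the rise, -0.79, was in the bin to the right of the gene. *Neurod1* thus sat close to the crest of a peak inside a late domain of 2850 kb whose highest RT was -0.26. *Cerkl*, which runs over the same bin and 3 further bins, had a mean RT of -1.12.

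*Olig2* (chromosome 16, 91225457 to 91228677), which directs motor neuron and oligodendrocyte fates, showed the opposite arrangement. Its RT of 0.56 was close to the lowest value within 1 Mb, 0.46 in the bin to its left, while RT reached 3.36 at 1000 kb to the left and 3.31 at 400 kb to the right. All 41 bins within 1 Mb were above 0. The gene therefore lay at the bottom of a dip inside an early domain of 2800 kb. *Olig1*, the neighboring bHLH gene whose start is 44.3 kb away, is in the next bin, with RT 0.61.

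*Pax6* (chromosome 2, 105668900 to 105697364), needed for eye and forebrain development, lay 100 kb from the right end of an early domain of 2500 kb. Its own bin was a local top, at 1.56, with 1.02 and 1.03 in the bins next to it and 0.36 and 0.44 in those after them. RT was 3.40 at 950 kb to the left and -3.38 at 600 kb to the right, so the gene stood on the edge between early and late DNA. The center of the closest TTR, where RT crosses 0, was 135 kb from its start, the shortest such distance of the 9 genes.

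*Sox1* (chromosome 8, 12395295 to 12400126), one of the earliest markers of the neural plate, spans the border of 2 bins with RT 1.24 and 1.82. To its left the profile went through a valley with a lowest RT of -0.65 at 200 kb, beyond which RT was 3.53 at 650 kb. To its right RT climbed to 3.38 at 800 kb. The slope over the 5 bins around its start, 11.1 log2 per Mb, was the steepest of the set. Because the valley did not reach RT -1, it was no TTR by the limits used, and the closest TTR center was 1172 kb away. With limits at RT 0.5 and -0.5 the valley counted, and the distance was 118 kb.

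*Pou3f2* (chromosome 4, 22482780 to 22488366, minus strand), a factor of cortical neurons also called Brn2, had RT -1.06 on the flank of a descent. RT was 2.85 at 600 kb to the left, -0.38 at 200 kb to the left and -3.35 at 200 kb to the right. The TTR center lay 333 kb to the left of the gene start. The late domain that begins at this transition runs for 9750 kb, the longest domain around any of the 9 genes.

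*Ptn* (chromosome 6, 36714929 to 36810220, minus strand) is the longest of the genes and covers 3 bins, with RT -3.21, -3.15 and -3.09 along the assembly. RT was -4.19 at 550 kb to the left, crossed 0 at 300 kb to the right and reached 2.77 at 950 kb to the right. The gene starts on the side of the transition and its body extends into late DNA. It shares its last bin with *Dgki*, which reaches into that transition and had a mean RT of -0.90.

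*Nes* (chromosome 3, 87971078 to 87980451) was the only gene inside a CTR, where 16.6% of all protein-coding genes start. This rests on the slope limit of 2.5 log2 per Mb, as no gene was in a CTR at 1.5 and *Olig2* was in one too at 5. All 41 bins within 1 Mb were early, and from 150 kb to the left to 1000 kb to the right RT stayed between 3.15 and 3.89. To the left RT dipped to 0.95 at 600 kb. The nearest TTR center was 2112 kb away, the largest distance of the set. *Crabp2*, which encodes a retinoic acid binding protein, and *Bcan*, which encodes the brain proteoglycan brevican, share its bin and had mean RT of 3.66 and 3.67.

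**Figure D2:**
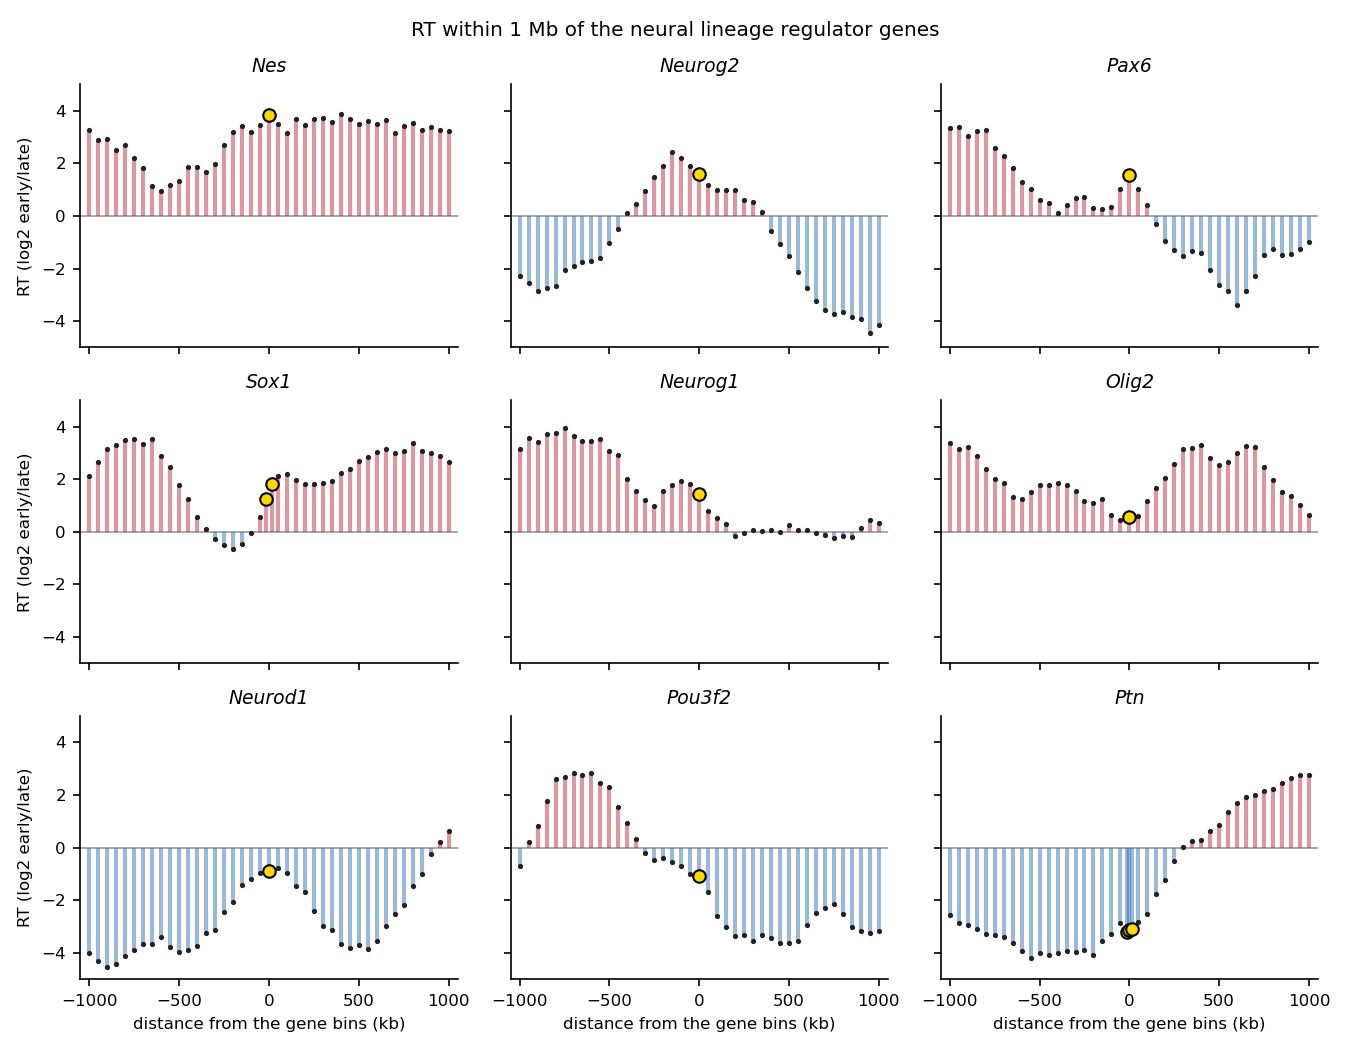
RT (log2 early over late) of each 50 kb bin against its distance in kb from the bins of the gene, left and right along the assembly, with 1 panel per gene ordered by RT. Yellow points are the bins of the gene, and red and blue lines are bins above and below RT 0. *Neurod1* is on a peak among late bins, *Olig2* in a dip among early bins, and *Pax6*, *Pou3f2* and *Ptn* beside transitions.

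The spread of RT around the genes was about that around genes in general. The difference between the highest and the lowest bin within 1 Mb had a median of 5.17 log2 and ran from 2.90 around *Olig2* to 6.96 around *Ptn*, beside a median of 4.99 over all protein-coding genes. Both early and late bins were present around 7 of the 9 genes, all but *Nes* and *Olig2*, beside 71.5% of all protein-coding genes. The share of early bins was 100% around those 2 genes, 88.1% around *Sox1*, 80.5% around *Neurog1*, 56.1% around *Pax6*, 39.0% around *Neurog2*, 34.9% around *Ptn*, 31.7% around *Pou3f2* and 4.88% around *Neurod1*. *Neurog2* was the only early gene with mostly late bins around it, with RT 1.61 against a mean of -1.06.

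A TTR center lay within 1 Mb of the start of 6 of the 9 genes, beside 59.8% of all protein-coding genes. The distances were 135 kb for *Pax6*, 314 kb for *Ptn*, 333 kb for *Pou3f2*, 353 kb for *Neurog2*, 649 kb for *Neurog1* and 946 kb for *Neurod1*. *Sox1*, *Olig2* and *Nes* were farther away, at 1172, 1338 and 2112 kb. The count was 5 with limits at RT 2 and -2, where *Neurod1* was 1923 kb from a center, and 7 with limits at RT 0.5 and -0.5, where *Sox1* was added. Within 500 kb it was 4. The shares of all protein-coding genes at these other limits are not given.

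Each gene was also set against the mean of the bins 300 to 500 kb to its left and to its right, a description added after the values were seen. *Neurog2*, *Pax6* and *Neurod1* were higher than both sides by more than 2 noise SDs of the difference, beside 27.7% of the 21377 protein-coding genes with enough bins. *Neurod1* rose by 2.69 and 2.56 log2 over its sides, *Neurog2* by 1.61 and 2.11, and *Pax6* by 1.10 and 3.34. *Olig2* was the only gene lower than both, by 1.19 and 2.43 log2, beside 12.1% of genes. *Sox1*, *Neurog1*, *Pou3f2* and *Ptn* lay between their sides, beside 23.2% of genes. *Nes* was 2.11 log2 above its left side and level with its right side. Genes level with either side or with both, whether above or below the other, made up 37.0%. The share with the pattern of *Nes* alone is not given.

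**Figure D3:**
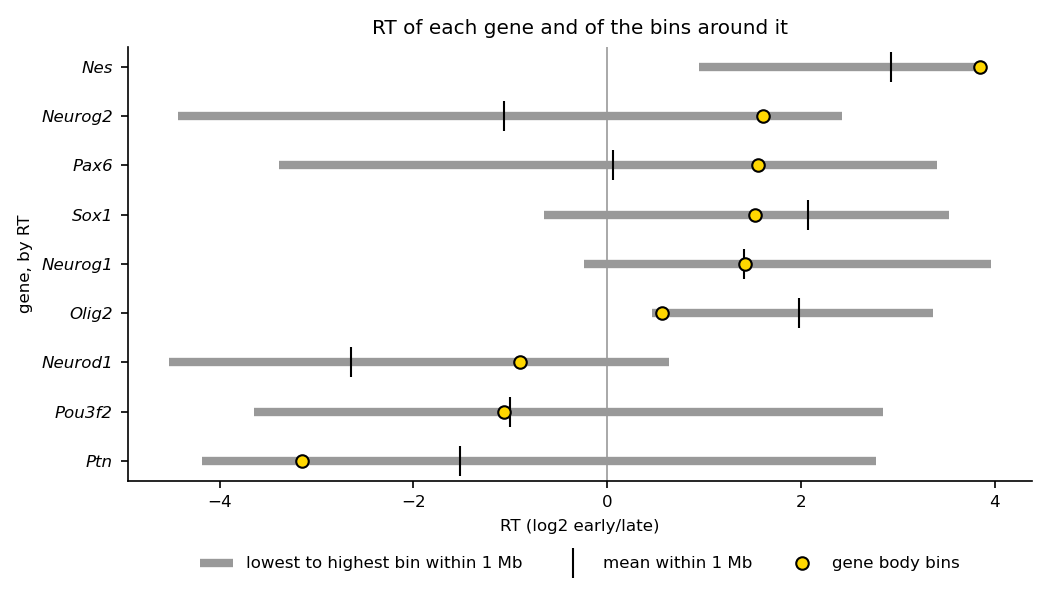
RT (log2 early over late) of each gene (yellow point), with the lowest and the highest bin within 1 Mb on each side (grey bar) and the mean of those bins (black tick). *Neurog2* and *Neurod1* lie well above the mean around them, at -1.06 and -2.64, and *Olig2* lies below its mean of 1.98.

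The surroundings of *Sox1* and *Olig2* were the most alike among the 9 genes. Read in the direction of transcription over 41 bins centered on the start, their profiles differed by a root mean square of 1.21 log2. Among all protein-coding genes on other chromosomes, the closest profile was that of *Tmem211* for *Nes* (0.35 log2), *Edn2* for *Sox1* (0.42), *Gab2* for *Olig2* (0.47), *Pcdh19* for *Ptn* (0.49), *Bcl9* for *Neurog1* (0.50), *Lars* for *Neurog2* (0.55), *Timd2* for *Pou3f2* (0.57), *Gm17509* for *Neurod1* (0.59) and *Cacybp* for *Pax6* (0.69). These values describe likeness of the profile over bins that are not independent.

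GC content of the gene bins ran from 40.1% at *Ptn* to 52.7% at *Nes*, with a median of 47.5%, beside a median of 41.1% over all bins. Across the 9 genes it was higher at higher RT, with a Spearman's rho of 0.68, and over all 51039 bins with a GC value rho was 0.74. Gene starts were dense around *Nes*, with 55 other protein-coding genes within 1 Mb, all of them early, and sparse around *Ptn*, with 4. *Neurod1* had 9 such genes, of which 1 was early, and *Pou3f2* had 8, of which 7 were early although the gene itself was late. *Neurog2* had 7, with 6 early.

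The CpG content of the 250 bases before each gene start did not follow RT, with a Spearman's rho of 0.02 over the 9 genes. CpG was at or above 0.6 of the number expected from base composition at 7 of the 9 genes, beside 41.6% of all protein-coding genes. It was 0.669 at *Neurod1* and 0.761 at *Pou3f2*, which had RT below 0, against 0.507 at *Sox1*. The sequences before the start of the earliest gene, the latest gene and the gene with the highest CpG content are given here, from the GRCm38.p6 reference (mm10) and on the strand of the gene, with each CpG in capitals. *Nes* (chr3:87970828-87971077, plus strand) has 14, *Ptn* (chr6:36810221-36810470, minus strand) has 4 and *Neurog1* (chr13:56252164-56252413, minus strand) has 27.
Nes: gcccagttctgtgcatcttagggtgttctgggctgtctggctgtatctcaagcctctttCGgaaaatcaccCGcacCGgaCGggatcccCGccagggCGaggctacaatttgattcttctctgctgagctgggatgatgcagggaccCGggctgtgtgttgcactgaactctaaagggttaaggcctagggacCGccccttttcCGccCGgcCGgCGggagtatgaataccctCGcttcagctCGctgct
Ptn: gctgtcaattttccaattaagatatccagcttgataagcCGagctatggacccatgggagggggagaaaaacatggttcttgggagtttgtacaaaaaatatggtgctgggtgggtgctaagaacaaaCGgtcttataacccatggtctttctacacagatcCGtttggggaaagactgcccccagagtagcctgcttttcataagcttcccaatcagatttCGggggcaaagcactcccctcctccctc
Neurog1: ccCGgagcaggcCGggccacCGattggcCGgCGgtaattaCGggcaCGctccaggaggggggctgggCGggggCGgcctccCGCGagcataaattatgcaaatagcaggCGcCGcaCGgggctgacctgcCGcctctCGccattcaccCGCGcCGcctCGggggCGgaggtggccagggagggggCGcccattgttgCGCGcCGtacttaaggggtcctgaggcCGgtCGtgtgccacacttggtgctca

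*Ptn*, the latest gene, thus had the fewest CpGs and *Nes*, the earliest, had about as many as *Neurod1*, which has 14 as well. The bHLH binding letters CANNTG, which read the same on both strands, occur in this window at *Neurog1* and *Neurod1*, beside 63.8% of all protein-coding genes. The octamer ATGCAAAT, bound by POU factors, was searched on both strands and occurs at *Neurog1*, beside 1.46% of all genes. These matches describe letters and not binding.

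Of 18 pairs of a gene with a relative, named after their values were seen, 11 differed by more than 2 noise SDs. Among the 9 genes themselves, 29 of 36 pairs did. The pair of *Neurog1* and *Neurog2* is in both counts, and no share over pairs of all genes is given. No conclusion about relatives is therefore drawn from these counts. Pleiotrophin and its only close relative, midkine, were farthest apart, with *Ptn* at -3.15 and *Mdk* at 3.64. In the POU class 3 family, *Pou3f1* had RT 3.57, *Pou3f2* -1.06, *Pou3f3* -1.28 and *Pou3f4*, on X, -3.76, and *Pou3f2* and *Pou3f3* were not told apart. In the SOXB1 family, *Sox2*, which mESCs use for pluripotency, had RT 3.35, *Sox1* 1.53 and *Sox3*, on X, -1.10, each step beyond noise.

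Among the bHLH genes, *Neurog3* at 2.70 was higher than *Neurog1* and *Neurog2* by 1.28 and 1.09 log2. *Neurod1* at -0.90 was not told apart from *Neurod4* at -0.95 and *Neurod6* at -1.18, while *Neurod2* was at 3.54. *Olig2* and its neighbor *Olig1* differed by 0.05 log2 and *Olig3*, on another chromosome, was 1.54 log2 lower than *Olig2*. Among intermediate filament genes, *Nes* was not told apart from *Gfap* at 3.65 and *Ina* at 3.43, and was 4.70 log2 above *Vim* at -0.85, although vimentin is the usual filament partner of Nestin.

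A list of 54 further genes of neural development was read the same way. Early RT was found for 38 of the 54, 70.4%, beside 72.5% of all protein-coding genes, and their median RT was 1.94. RT between -2 and 2 held 24, or 44.4%, beside the 33.3% of all protein-coding genes. Neither count was tested.

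Of 8 other neural bHLH genes 4 were early, with a median RT of -0.45. *Neurod2* was the earliest at 3.54 and *Bhlhe22* the latest at -2.33. The other late ones were *Neurod4*, *Neurod6* and *Olig3*. Of 13 PAX and homeobox genes 11 were early, from *Dlx2* at 3.29 to *Otx1* at 0.29, and the late ones were *Pax3* at -0.53 and *Emx2* at -1.78. The 6 SOX genes split evenly, from *Sox10* at 3.72, a neural crest gene, to *Sox11* at -2.37.

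In the Notch pathway, through which neighboring progenitors hold back each other's differentiation, 3 of 4 ligand genes were early, with *Dll3* at 3.51 and *Jag1* at -1.21 as the earliest and the latest. Of the receptor genes *Notch1* had RT 3.77 and *Notch3* 3.58, while *Notch2* had -0.83. The 4 target genes were all early, from *Hes3* at 3.51 to *Hey1* at 1.09. For pleiotrophin, 3 of 5 relatives or receptor genes were early. The receptor genes *Ptprz1* at -1.48 and *Alk* at -1.42 were late like *Ptn*, though higher, and *Sdc3* and *Lrp1* had RT 3.47 and 3.61. Of 8 other intermediate filament genes 7 were early, from *Prph* at 3.79 to *Synm* at 1.28, and *Vim* was late.

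**Figure D4:**
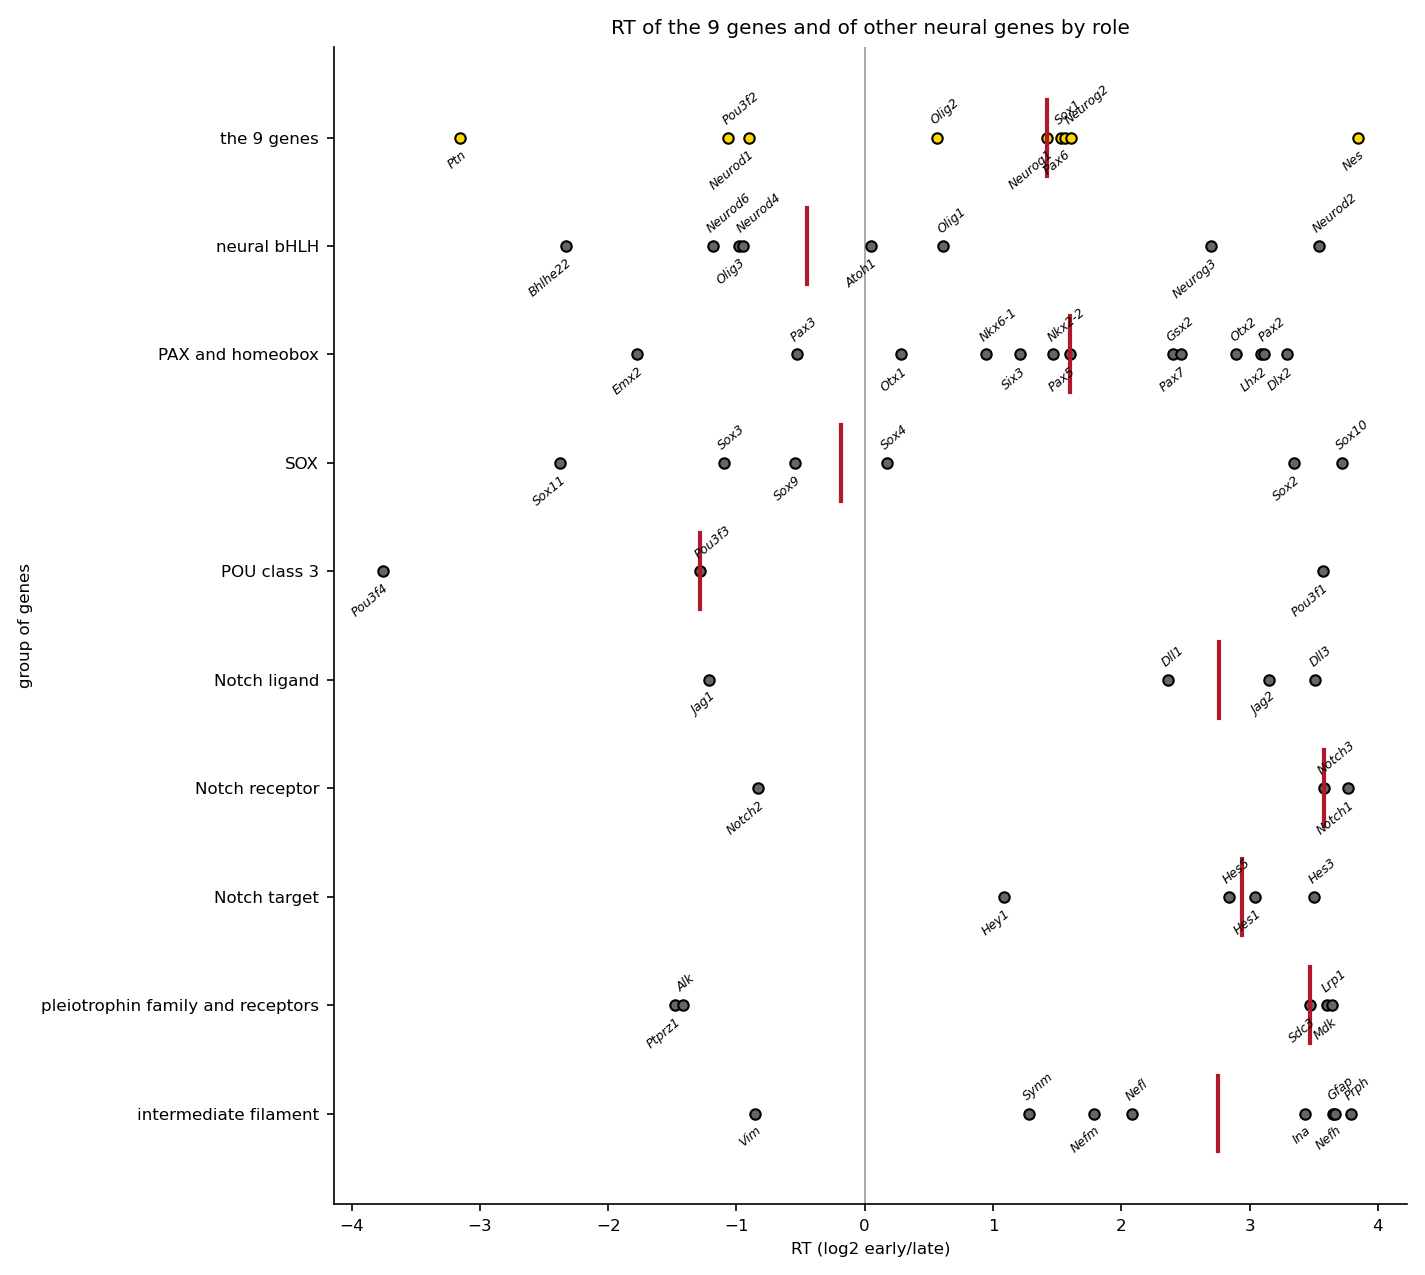
RT (log2 early over late) of the 9 genes (yellow, top row) and of the 54 other neural genes (grey) by role, with 1 point per gene and a red line at the median of each row. Neural bHLH, SOX and POU class 3 genes spread over both sides of RT 0 with medians of -0.45, -0.19 and -1.28, and the Notch target genes are all early.

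For comparison, 9 regulators of mesoderm and endoderm had a median RT of 2.33, with 7 early and 3 between -2 and 2. *Mesp1* was the earliest at 3.52 and *Foxa2* the latest at -0.61. The 9 pluripotency factor genes, a class that maintains the mESC state, were all early, with a median of 3.37 and a range from 2.66 for *Zfp42* to 3.51 for *Pou5f1*, so none of them was between -2 and 2. Of the 9 neural lineage genes *Nes* lay above that range and the other 8 lay below its lower end. These lists are side by side and the differences between them were not tested.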

How the data were processed

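The starting point was the deposited log2 ratio of early over late reads, 1 value per 50 kb bin, which the authors made after scaling the reads of each fraction to RPM. The submitters' processing notes name Bowtie2, SAMtools, bedtools and mm10. Whether and how the 2 replicates were combined, and any filter or smoothing of this profile, is not given in the sources used here. Of 51427 bins, 51153 on the autosomes and X were used, and 273 on Y and 1 on the mitochondrial genome were left out. Bin positions were read as bin starts, and 0 bins lay outside the GRCm38.p6 chromosomes.

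RT of a gene was the mean of the bins that overlap its GENCODE vM21 body, and 76 protein-coding genes had no value. CTRs were stretches of 10 or more bins where the slope over 5 bins did not exceed 2.5 log2 per Mb. TTRs joined a bin at RT 1 or above to one at -1 or below, allowing up to 200 kb without values, and the center was the place where RT crosses 0, or midway between the first and last crossing. The noise SD came from deviations of bins from the mean of their neighbors inside the 432 CTRs. CpG observed over expected was the number of CpGs times the window length over the product of the C and G counts.

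The 9 genes and the gene lists were chosen with earlier results of these data known, and 1 gene of the neural list is not reported here and was left out of its counts. Named genes were all 9, the earliest and latest of each role, the closest profile for each gene and the genes sharing a bin, and the relatives, receptor genes and late members of a role were named after their values had been seen. The alternatives changed the bins taken for a gene, the smoothing, the bin position, the limits of states and slopes and the windows. The steps were tested on simulated profiles. Python 3.11.15, numpy 2.4.6, pandas 2.3.3, scipy 1.17.1 and matplotlib 3.10.9 were used.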

Additional observations from a re-analysis of the deposited data

How the results depend on the processing

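No paired analysis was possible because no values per replicate or fraction were analysed here, and for the same reason no replicate could be left out. Of 138 alternatives 84 left the value where it was, within noise, 50 kb or 1.5-fold for a count, and 54 moved it. The sign changed in 0, but counts, distances and ranges cannot be negative, so this informs only on RT values and their medians. For the RT of the single genes 13 of 45 moved and 0 crossed RT 0. The median RT of the 9 genes was 1.24 for the bin of the gene start and of the gene midpoint, 1.205 with 1 further bin on each side, 1.02 after a running median over 5 bins and 0.78 with bins placed 50 kb to the left. That of the other neural genes was 1.60 with the displaced bins. The number of genes in a CTR was 0 at a slope limit of 1.5 and 2 at 5 log2 per Mb. For counts at altered limits, the share of all protein-coding genes is not given. The median range of RT around the genes was 3.34 within 500 kb, 6.92 within 2 Mb and 4.96 after the running median, which follows from the window and the smoothing. With RT -1.5 and 1.5 as limits, chosen after seeing the data, 4 genes lay between them. Apart from these constructions the cause was not tested. Depth is unknown.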
